A study of Mus musculus with 10 samples.

Results

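The genes that make, break down and sense retinoic acid were read from bulk RNA-sequencing of mouse lungs collected at postnatal day 14 (P14). The 9 genes were chosen by name, from 54532 genes in the deposited table. They are Rbp4 and Stra6 (retinol delivery and uptake), Aldh1a1 and Aldh1a2 (synthesis), Cyp26b1 (breakdown), and the receptor genes Rara, Rarb, Rarg and Rxra. All 9 had a row in the table.

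The IncPBF group (increased pulmonary blood flow) comprised 5 lungs of pups in which a needle puncture at postnatal day 7 (P7) joined the abdominal aorta to the inferior vena cava. The sham group comprised 5 lungs of pups that had the laparotomy at P7 without the puncture. All pups were wild type, of the strain given as C57/BL6 in the study's methods, which state male or female pups. The shunt lay in the abdomen and was made after birth, so the fistula models flow to the lung without a heart defect. Whole lung tissue was sequenced, with no cell type separated.

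Retinoic acid is made from vitamin A. Retinol travels in blood bound to RBP4, can enter cells through STRA6, is oxidised reversibly to retinal by alcohol and retinol dehydrogenases, and is then oxidised irreversibly to retinoic acid by retinaldehyde dehydrogenases (ALDH1A enzymes). Retinoic acid binds RARs, which sit on DNA as pairs with RXRs, and CYP26 enzymes break it down; in the rodent lung it is known for its part in the formation of alveoli.

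Values are FPKM, fragments per kilobase of gene length scaled to library size. Fragments on genes numbered 16103423 to 20318525 per IncPBF lung and 18171494 to 19400575 per sham lung. The AT2 cell markers, surfactant genes among them, summed to between 11170 and 16866 FPKM in each of the 10 lungs, in accordance with the labelled tissue. The female-specific transcript Xist lay between 52.4 and 66.5 FPKM in IncPBF lungs 2 to 5, but at 0.0144 in IncPBF lung 1 and at no more than 0.077 in sham lungs. Ddx3y, which is Y-linked, went the other way, with 18.6 FPKM in IncPBF lung 1 and 21.8 to 24.6 in the sham lungs. Sex-linked expression and surgery could be told apart only through IncPBF lung 1, so calls were also made with Xist as a covariate and for that lung alone against the sham lungs.

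Of the 9 genes, 7 had a mean of at least 0.5 FPKM and were tested with limma, with p-values adjusted over all 15388 genes that passed this filter. Among these 7, 4 were lower in the IncPBF lungs at an adjusted p under 0.05 (Cyp26b1, Aldh1a1, Aldh1a2 and Rxra) and 0 were higher. Across all genes tested, 16.2% were called lower and 16.1% higher, or 2490 and 2480 genes. With an equal total per lung the split over all genes was 1782 lower and 3559 higher. At an unadjusted p under 0.05, limma added Rarg to the lower genes and still gave 0 higher, where 21.4% of all genes were lower and 21.7% higher. By adjusted p, limma-voom on fragments called 3 of the 7 lower and 0 higher, where 12.1% of all genes were called lower and 23.7% higher. Only 1 of the 7, Cyp26b1, was called lower with Xist as a covariate, where 2.68% of all genes were. The count ran from 2 to 4 when each lung was left out. The median log2 fold change was -0.21 over the 7 genes and 0.01 over all genes tested. For 2 of the 9, Aldh1a1 and Cyp26b1, the highest IncPBF lung was under the lowest sham lung, a pattern that 11.2% of all genes tested showed. The labels do not say whether the pups came from separate litters, so p-values measure the spread between these lungs.

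**Figure D1:**
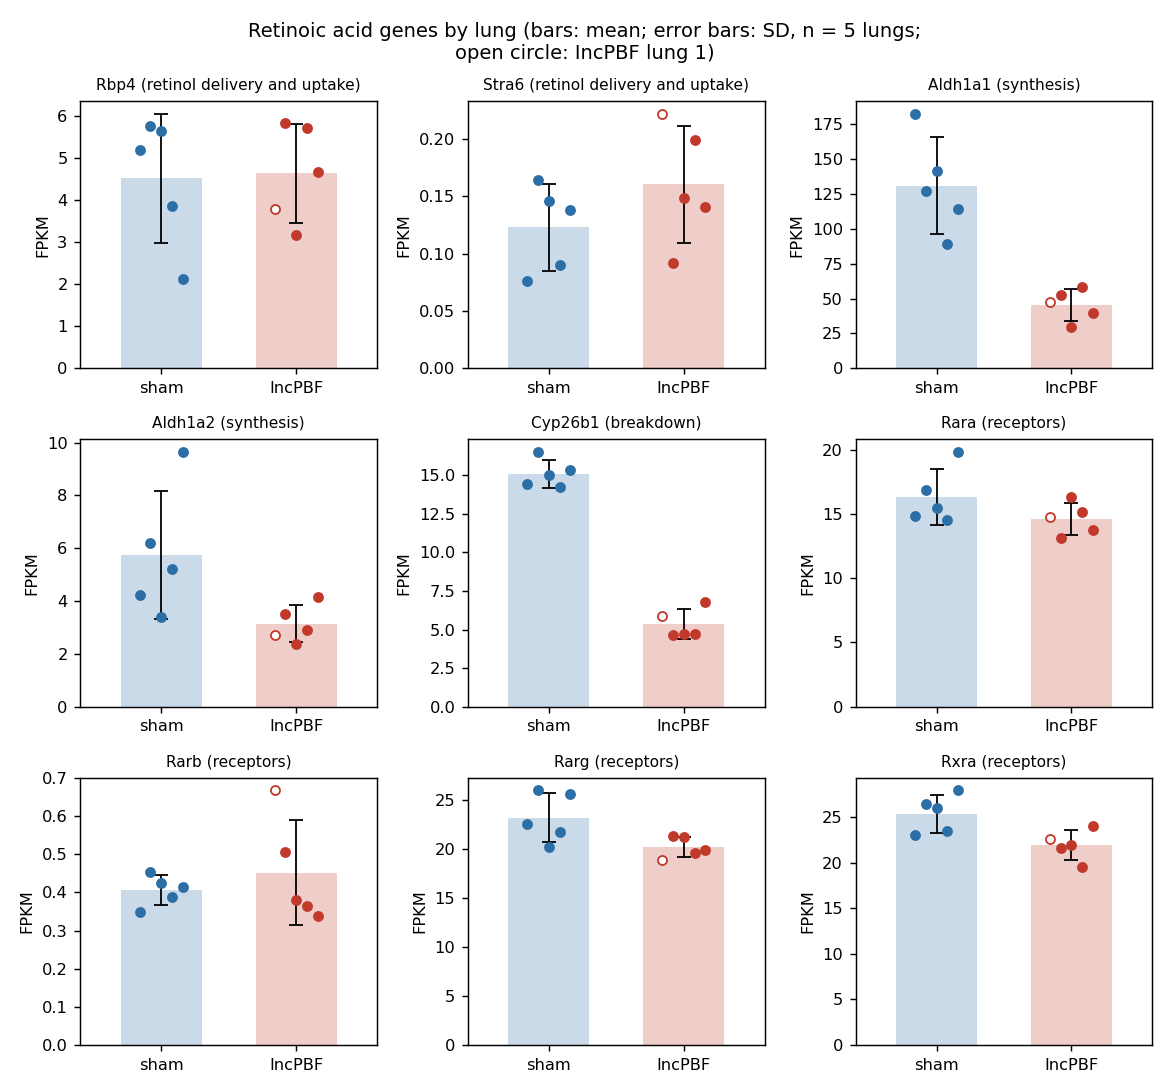
FPKM (y axis, linear, from 0) of each of the 9 genes in the 5 sham and 5 IncPBF lungs. Points are single lungs, bars the mean and error bars the SD, and the open circle is IncPBF lung 1. Aldh1a1 and Cyp26b1 are the genes whose groups are fully apart, with means of 45.5 against 131 and 5.34 against 15.1 FPKM.

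Cyp26b1, which encodes the enzyme that clears retinoic acid, showed the smallest adjusted p of the 9 genes. Its level was 5.85, 4.64, 4.70, 4.70 and 6.80 FPKM in IncPBF lungs 1 to 5. In sham lungs 1 to 5 it was 14.4, 16.5, 15.0, 14.2 and 15.3 FPKM. The sham lungs were close to each other, and even the highest IncPBF lung, lung 5, remained far below the lowest sham lung. The mean fell from 15.1 ± 0.899 to 5.34 ± 0.963 FPKM (SD, n = 5 each), which is 64.7% lower. The log2 fold change was -1.50 (95% interval -1.73 to -1.27; standard error 0.10), at an adjusted p of 6.9e-06 from limma. The two-sided exact permutation test of the means gave p = 0.00794, the smallest that all assignments of 10 lungs to 2 groups of 5 allow. By adjusted p, Cyp26b1 stood at rank 29 of the 15388 genes. The values rest on 434 to 756 fragments per IncPBF lung and 1388 to 1665 per sham lung. The call remained in all 23 alternative fits. With Xist as a covariate the log2 fold change was -1.34 with an adjusted p of 0.0041 (limma), where 2.68% of all genes tested were called lower. IncPBF lung 1 alone against the sham lungs gave -1.35 with an adjusted p of 0.0076 (limma), where 0.728% of all genes were called lower. That lung, whose Xist level is that of a sham lung, lay within the range of the other IncPBF lungs.

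Cyp26b1 also made up nearly all of the CYP26 family in these lungs. Its share of the summed FPKM of Cyp26a1, Cyp26b1 and Cyp26c1 was at least 98.6% in every IncPBF lung and at least 98.8% in every sham lung. The summed level of the 3 genes accordingly went from 15.2 ± 0.862 FPKM in the sham group to 5.36 ± 0.947 in the IncPBF group (SD, n = 5 each).

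The gene lies on chromosome 6 of GRCm38, on the minus strand at chr6:84571414-84593908, and its merged exons number 9. The stretch before its first exon is shown because Cyp26b1 fell most clearly among the genes here, and because CYP26 genes are known to answer to retinoic acid. It is the RefSeq promoter sequence of GRCm38.p6 at chr6:84593909-84594060, 152 bases on the minus strand, with GC boxes (GGGCGG or its complement CCGCCC) in capitals:
Cyp26b1: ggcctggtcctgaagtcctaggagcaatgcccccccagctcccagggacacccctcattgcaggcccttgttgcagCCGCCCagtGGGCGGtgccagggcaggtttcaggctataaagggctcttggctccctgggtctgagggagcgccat
The 250 bases before the RefSeq start of Cyp26b1 held 3 GC boxes, of which 2 lie in the stretch shown. Of the 32851 promoter windows of this length in the RefSeq table, 32.7% held a GC box. None of the half-sites that RARs bind (the letters AGGTCA, of which the first may also be G and the third also T, on either strand) lay in the 250 bases, which says only that these letters are not in this window.

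Aldh1a1, a retinaldehyde dehydrogenase and the most abundant of the 9 genes, fell about as much. Its level was 47.4, 52.6, 29.3, 58.4 and 40.0 FPKM in IncPBF lungs 1 to 5. The values in sham lungs 1 to 5 were 182, 127, 141, 89.0 and 114 FPKM. Sham lung 1 was the highest and sham lung 4 the lowest of its group, still above every IncPBF lung. The mean fell from 131 ± 34.6 to 45.5 ± 11.3 FPKM (SD, n = 5 each), or by 65.2%. On the log2 scale it fell by 1.52 (standard error 0.21, 95% interval -1.98 to -1.06; adjusted p = 0.00037, limma), and the exact permutation p was 0.00794. Between 2675 and 16149 fragments per lung lie behind these values.

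The size of the Aldh1a1 change moved little when Xist was taken into account, but its call was lost. With Xist as a covariate the log2 fold change was -1.42 (95% interval -2.25 to -0.59), with an adjusted p of 0.059 from limma. IncPBF lung 1 alone gave -1.42 as well, with an adjusted p of 0.11 (limma). These were the 2 of 23 alternatives in which the call was lost.

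Within the ALDH1A family the fall of Aldh1a1 changed the balance between paralogs. Aldh1a7, a close paralog of Aldh1a1, was at 35.6 ± 3.1 FPKM in the IncPBF lungs and 35.6 ± 13.7 in the sham lungs (SD, n = 5 each), with a log2 fold change of 0.11 and an adjusted p of 0.79 (limma). Aldh1a1 gave 75.7% ± 5.86 of the summed FPKM of Aldh1a1, Aldh1a2, Aldh1a3 and Aldh1a7 in the sham lungs, and 53.2% ± 5.80 in the IncPBF lungs (SD, n = 5 each). Its share ran from 67.6% to 82.2% in the former and from 44.3% to 57.5% in the latter. Aldh1a7 went from 20.6% to 42.7% of the sum, which is a share of RNA and not of enzyme activity. Its sham levels were uneven, from 14.9 FPKM in sham lung 5 to 51.4 in sham lung 3, the lungs with the least and the most summed airway epithelial markers (227 and 12653 FPKM), whose part in this was not tested. Without sham lung 5 the log2 fold change of Aldh1a7 was -0.17 (adjusted p = 0.34, limma), and the sham shares were 74.0% ± 5.27 for Aldh1a1 and 23.1% ± 4.94 for Aldh1a7 (SD, n = 4). Of the 4934 stretches of 100 bases in the transcripts of Aldh1a1, 1 is also in Aldh1a7 without a mismatch. The part of reads shared by the paralogs in these values was not tested.

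Aldh1a1 lies on the plus strand at chr19:20492715-20643462, with 21 merged exons. RefSeq gives it more than 1 start. The sequence before the start inside these bounds is shown as the promoter of the synthesis gene that changed most, from GRCm38.p6 at chr19:20601718-20601960 on the plus strand, 243 bases that end before the exon, with its only half-site (on the complementary strand) in capitals:
Aldh1a1: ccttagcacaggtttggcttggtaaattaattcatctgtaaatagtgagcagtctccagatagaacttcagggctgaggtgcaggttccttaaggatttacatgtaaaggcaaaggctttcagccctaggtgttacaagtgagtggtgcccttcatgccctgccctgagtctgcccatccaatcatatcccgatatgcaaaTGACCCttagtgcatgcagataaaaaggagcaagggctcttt
A half-site is common, since 38.6% of all 32851 promoter windows held one. Of the 19 windows of the 9 genes, 6 held one, and these belonged to 6 genes. The other window of Aldh1a1 held none.

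Aldh1a2, which encodes the retinaldehyde dehydrogenase that makes most retinoic acid in the embryo, was lower with overlapping groups. Its level was 2.70, 3.51, 2.39, 2.92 and 4.17 FPKM in IncPBF lungs 1 to 5. Sham lungs 1 to 5 gave 4.23, 6.19, 3.40, 5.20 and 9.64 FPKM. Sham lung 5 was highest by far, while sham lung 3 fell within the IncPBF range. The mean was 3.14 ± 0.708 against 5.73 ± 2.42 FPKM (SD, n = 5 each), 45.3% lower, from 100 to 380 fragments per lung. On the log2 scale it changed by -0.79 (95% interval -1.33 to -0.24, standard error 0.25; adjusted p = 0.031, limma), and the exact permutation p was 0.0317. The gene lies on the plus strand at chr9:71215789-71296243, with 14 exons.

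The Aldh1a2 call was less firm than those of Cyp26b1 and Aldh1a1. It was lost in 7 of 23 alternatives, with adjusted p from 0.0020 to 0.36 over all of them (limma). Leaving out IncPBF lung 1, IncPBF lung 3, IncPBF lung 4 or sham lung 2 raised the adjusted p to 0.065, 0.073, 0.064 and 0.067 (limma). With Xist as a covariate the log2 fold change was -0.89, with an adjusted p of 0.28 (limma), and IncPBF lung 1 alone gave -0.97, with an adjusted p of 0.36 (limma).

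**Figure D2:**
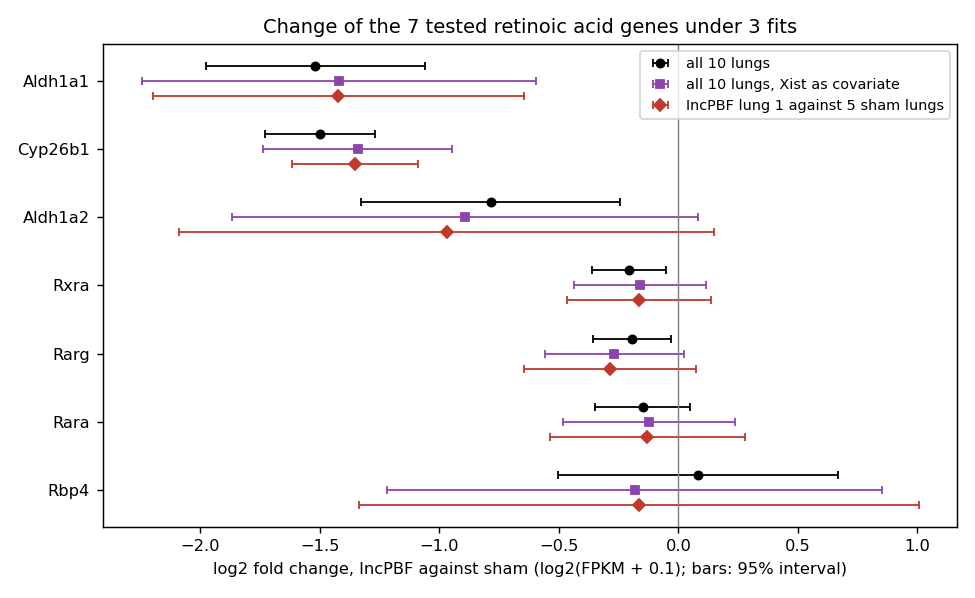
Log2 fold change of the 7 tested genes, IncPBF against sham (x axis), with 95% intervals as bars, from all 10 lungs, from all 10 lungs with Xist as a covariate, and from IncPBF lung 1 against the 5 sham lungs. The intervals of Cyp26b1 and Aldh1a1 lie below 0 in each fit, at -1.50 and -1.52 with all lungs, while those of Aldh1a2 and Rxra cross 0 once Xist is included.

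Markers of the mesothelium, the cell layer on the lung surface, moved with Aldh1a2. All 7 mesothelium markers that could be tested, of 10 listed, were lower in the IncPBF lungs, where 16.2% of all genes tested were. The median log2 fold change of the 7 was -0.88. The count was 2 with Xist as a covariate, 0 for IncPBF lung 1 alone, and 5 to 7 with each lung left out. The median was -0.73 with the covariate and -0.76 for that lung alone, and single markers moved further, Rspo1 from -0.73 to -0.45 and -0.50 and Upk3b from -1.27 to -0.81 and -0.90. None of the 10 was at 0 in every lung. Their summed level was 97.3 to 127 FPKM per IncPBF lung and 141 to 225 per sham lung, and it was highest in sham lung 5, the lung with the most Aldh1a2. The tested genes whose pattern over the 10 lungs was nearest to that of Aldh1a2 were Rspo1 and Msln, both on that list, and Gm7353. Their root mean square distances from it were 0.197, 0.200 and 0.227 on the log2 scale, each gene centred on its own mean, where Aldh1a2 itself deviates by 0.564. Msln was at 21.9 ± 5.69 FPKM in the IncPBF lungs and 41.3 ± 15.1 in the sham lungs (SD, n = 5 each). In bulk tissue fewer cells of a type and less RNA per cell cannot be told apart, and the part of the mesothelium in the Aldh1a2 result was not tested.

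**Figure D3:**
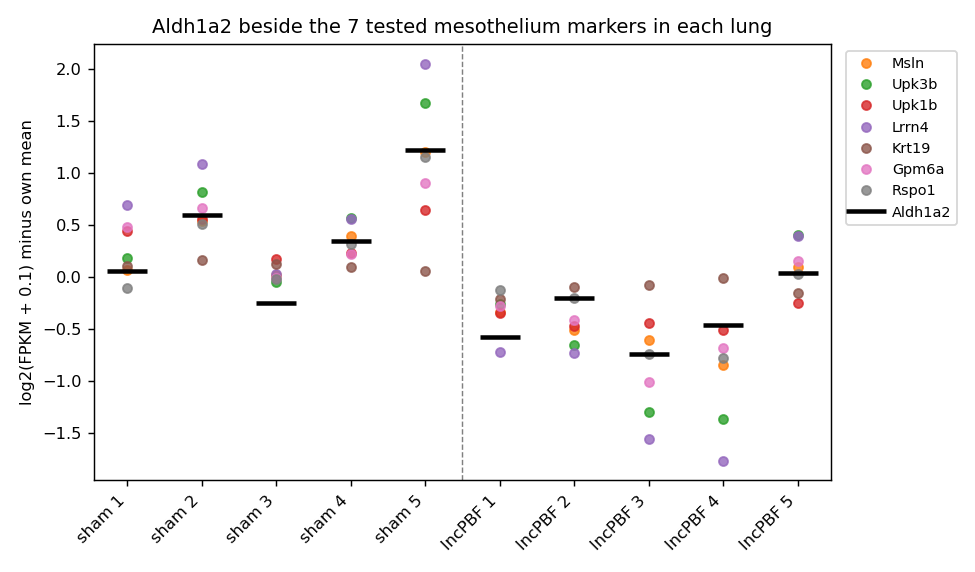
Log2(FPKM + 0.1) minus each gene's own mean (y axis) in each of the 10 lungs (x axis), for Aldh1a2 (bars) and the 7 tested mesothelium markers (points). Aldh1a2 and most markers are highest in sham lung 5, and the dashed line parts the groups.

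The patterns nearest to Cyp26b1 were those of Otulinl, Ndrg2 and Adamtsl2, at distances of 0.122, 0.135 and 0.136 (10 lungs), where Cyp26b1 itself deviates by 0.767. Each of these 3 genes was lower in every IncPBF lung than in any sham lung, with log2 fold changes of -1.45, -1.46 and -1.57. Nearest to Aldh1a1 were Ms4a4d, Plin4, which codes for a lipid droplet protein, and Myrip, at distances of 0.177, 0.209 and 0.215, where Aldh1a1 itself deviates by 0.834. Plin4, at 0.219 ± 0.119 FPKM in the IncPBF lungs and 0.824 ± 0.167 in the sham lungs (SD, n = 5 each), passed the filter through the sham lungs. All such neighbours share the group difference with the gene they are near.

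Alveolar fibroblasts, the lipofibroblasts among them, are a retinoid-storing cell type of the lung. Of the 10 markers of lipofibroblasts and alveolar fibroblasts, 4 were lower, 1 was higher and 5 were not called, with a median log2 fold change of -0.15. Across all genes tested, 16.2% were called lower and 16.1% higher. The summed level of these 10 markers was 756 to 929 FPKM per IncPBF lung and 1193 to 1791 per sham lung. The most abundant genes weigh most in this sum, and the mean of Inmt alone went from 502 to 64.8 FPKM. Pdgfra, the receptor that marks alveolar fibroblasts, fell by 1.36 on the log2 scale (adjusted p = 9e-05, limma). The defining lipid droplet marker Plin2 was at -0.09 (adjusted p = 0.27, limma), and Tcf21 at -0.03 (adjusted p = 0.80, limma). Inmt fell by 2.99, and Wnt2 rose by 0.71. Including Xist as a covariate left 2 lower and 1 higher, and IncPBF lung 1 alone gave 1 lower (Inmt) and 0 higher. Without sham lung 2, 2 were higher. Pdgfra was at -1.08 and -1.11 in these fits, and Wnt2 at 0.73 and 0.71. Endothelial markers were lower in 7 of 10 (median -0.38), with a summed level of 1182 to 1286 against 1309 to 1629 FPKM, and in 1 and 0 under these fits. Their median was -0.33 and -0.36 in these fits. The part of these cells in the falls of Cyp26b1 and Aldh1a1 was not tested.

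Rbp4, the carrier of retinol in plasma, was found at a low level with wide scatter. It was 3.79, 5.84, 3.17, 5.72 and 4.68 FPKM in IncPBF lungs 1 to 5. Sham lungs 1 to 5 had 5.20, 5.77, 5.65, 3.87 and 2.13 FPKM. The groups overlapped, with the highest value in IncPBF lung 2 and the lowest in sham lung 5. The means were 4.64 ± 1.17 and 4.52 ± 1.54 FPKM (SD, n = 5 each). The log2 fold change was 0.08 with an adjusted p of 0.84 (limma), and its 95% interval of -0.50 to 0.67 leaves room for a change in either direction. The direction turned without sham lung 5 (-0.16), with Xist as a covariate (-0.18) and for IncPBF lung 1 alone (-0.17), and without IncPBF lung 2 or 4 the value was next to 0. Other fits raised it, to 0.16 with an equal total per lung and at most to 0.21, without IncPBF lung 3. Rbp4 lies on the minus strand at chr19:38116620-38125321. Plasma RBP4 comes mainly from liver, and the hepatocyte marker genes (7 of 8 in the table, Alb among them) summed to no more than 2.02 FPKM in any lung.

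Stra6, the membrane receptor for RBP4, lay near the lower limit of measurement. It was at 0.222, 0.0915, 0.149, 0.199 and 0.140 FPKM in IncPBF lungs 1 to 5. The sham lungs, in order, had 0.0765, 0.164, 0.146, 0.0898 and 0.138 FPKM. These are 10 to 25 and 8 to 18 fragments per lung, and the groups overlapped. The gene was below the filter. Without a filter, where 6.65% of all 31400 genes were called lower, its log2 fold change was 0.22 (95% interval -0.26 to 0.70) with an adjusted p of 0.58 (limma). Stra6 lies on the plus strand at chr9:58063788-58153996.

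The tested receptor genes had log2 fold changes between -0.21 and -0.15. With an equal total per lung, and with limma-voom, which do not use the FPKM scaling, Rxra was at -0.13, Rarg at -0.12 and Rara at -0.07. Rxra, the common partner of RARs, was at 22.5, 21.6, 21.9, 19.6 and 24.1 FPKM in IncPBF lungs 1 to 5. The sham lungs, in order, had 23.0, 26.4, 25.9, 23.5 and 27.9 FPKM. IncPBF lung 5 overlapped the sham range, and the others lay below it, lung 4 the lowest. The mean was 21.9 ± 1.63 against 25.3 ± 2.07 FPKM (SD, n = 5 each), 13.4% lower. Its log2 change was -0.21, with a standard error of 0.07, an adjusted p of 0.043 (limma) and an exact permutation p of 0.0317. The call was lost in 13 of 23 alternatives, among them an equal total per lung (adjusted p = 0.14, limma) and the leaving out of IncPBF lung 1, 2, 3 or 4 or of sham lung 2, 3 or 5. Over all alternatives the adjusted p ran from 0.024 to 0.56 (limma). Rxra lies on the plus strand at chr2:27676440-27762957.

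Rarg was at 18.9, 21.3, 21.2, 19.6 and 19.9 FPKM in IncPBF lungs 1 to 5. Its levels in sham lungs 1 to 5 were 22.5, 26.0, 20.2, 21.7 and 25.6 FPKM. Only sham lung 3 reached into the IncPBF range. The log2 fold change was -0.20 (95% interval -0.36 to -0.03), and the adjusted p of 0.065 (limma) missed the threshold, with an exact permutation p of 0.0317. It was called lower in 2 of 23 alternatives, quantile normalization (adjusted p = 0.045, limma) and the fit without sham lung 3 (adjusted p = 0.021, limma). Rarg lies on the minus strand at chr15:102234938-102257517.

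Rara was at 14.8, 13.1, 16.3, 15.1 and 13.8 FPKM in IncPBF lungs 1 to 5. In sham lungs 1 to 5 it was at 14.8, 16.9, 15.5, 14.5 and 19.8 FPKM. The groups overlapped widely and sham lung 5 was the highest. The log2 fold change was -0.15 (95% interval -0.35 to 0.05) with an adjusted p of 0.23 (limma), and it was not called in any of the 23 alternatives. Without sham lung 5 the value was -0.08. Rara lies on the plus strand at chr11:98927818-98974942.

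Rarb, a receptor gene that is itself a known target of retinoic acid, was measured on few fragments. It was at 0.668, 0.507, 0.380, 0.363 and 0.338 FPKM in IncPBF lungs 1 to 5. Sham lungs 1 to 5 had 0.349, 0.454, 0.424, 0.388 and 0.415 FPKM. IncPBF lungs 1 and 2 lay above every sham lung, and IncPBF lung 5 lay below them all. With 33 to 68 fragments per lung the gene was below the filter. Without a filter the log2 fold change was 0.10 (95% interval -0.37 to 0.56) with an adjusted p of 0.82 (limma). Of the exon bases of Rarb, 34.1% also lie in exons of Top2b on the opposite strand. Whether counting used strand is not given in the sources used here, so Rarb values may hold Top2b reads and are uncertain.

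The retinoic acid response element of Rarb is shown because it was the only direct repeat of half-sites spaced by 5 bases among the 19 promoter windows of the 9 genes. It lies on the minus strand of GRCm38.p6 at chr14:16575513-16575529, between 53 and 37 bases before the RefSeq start, which is inside the bounds of the gene (chr14:16430839-16819156), with half-sites in capitals:
Rarb: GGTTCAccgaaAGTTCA
Such a repeat stood in 29 of all 32851 windows (0.0883%), and one spaced by 2 bases in 0.174% of them and in 0 of the 19. The 29 windows belong to 28 genes. Of these, 4 were tested, and 1 was lower and 0 higher, with a median log2 fold change of 0.04.

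The order of the mean levels was the same in both groups except for Aldh1a2 and Rbp4, which changed places. The ranges of these 2 genes overlapped in both groups. Their order in the sham lungs rested on sham lung 5, with Aldh1a2 at 9.64 and Rbp4 at 2.13 FPKM. In the sham lungs the means ran from Aldh1a1 through Rxra, Rarg, Rara, Cyp26b1, Aldh1a2, Rbp4 and Rarb to Stra6, where the ranges of Rxra and Rarg, of Rara and Cyp26b1 and of Aldh1a2 and Rbp4 overlapped. In the IncPBF lungs the order was Aldh1a1, Rxra, Rarg, Rara, Cyp26b1, Rbp4, Aldh1a2, Rarb and Stra6. Cyp26b1 no longer overlapped Rara there and instead overlapped Rbp4, the next lower gene. Within the RARs the balance was alike in both groups. Rarg gave 57.2% ± 2.44 of the summed RAR FPKM in the IncPBF lungs and 58.2% ± 2.08 in the sham lungs, and Rara 41.5% ± 2.42 and 40.8% ± 2.06 (SD, n = 5 each).

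The other genes of retinoid metabolism went in both directions. Of 39 such genes, 21 were tested, of which 8 were higher, 5 were lower and 8 were not called, with a median log2 fold change of 0.11. Steps on either side of the ALDH1A reaction can be named. Of the 11 tested genes of retinol and retinal interconversion, 6 were higher and 2 lower, where 16.1% and 16.2% of all genes tested were. Without IncPBF lung 2, 3, 4 or 5 or sham lung 3 or 5, 1 was lower. Rdh10, which makes retinal for retinoic acid synthesis, rose from 5.03 ± 0.441 to 7.38 ± 0.171 FPKM (SD, n = 5 each; log2 fold change 0.55, adjusted p = 0.00012, limma). Adh1, an alcohol dehydrogenase, rose from 91.5 ± 16.7 to 154 ± 7.09 FPKM (0.77, adjusted p = 0.00058, limma). Dhrs3, which turns retinal back to retinol, fell from 33.7 ± 1.75 to 23.3 ± 1.65 FPKM (log2 fold change -0.54, adjusted p = 0.00011, limma). Akr1b10, an aldo-keto reductase, rose from 2.78 ± 0.185 to 3.86 ± 0.316 FPKM (0.46, adjusted p = 0.0013, limma). The reaction is reversible, and its net direction was not tested. The groups did not overlap for any of these named genes, which had the smallest adjusted p of the list. Over all genes tested, 11.2% were lower without overlap, and the share that was higher without overlap was not computed.

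Of the 2 tested genes of retinol carriage and retinoid binding in cells, 1 was higher. Fabp5, a fatty acid-binding protein that also binds retinoic acid, rose from 15.6 ± 2.13 to 19.2 ± 1.87 FPKM (SD, n = 5 each; log2 fold change 0.30, adjusted p = 0.035, limma), with overlapping groups, and was called in 12 of 23 alternatives. It was lost without IncPBF lung 1, 3 or 5 or sham lung 1, 2 or 5, where the adjusted p was at most 0.082 (limma). Of the 6 tested genes of storage and release, 3 were lower and 1, Dgat1, higher. Dgat1 was not called without IncPBF lung 1, 3 or 4 or sham lung 1, 3 or 4. The lower genes, Pnpla2, Lpl and Lipe, encode lipases with wider roles in fat metabolism, and their log2 fold changes were -0.94, -0.88 and -0.68. Of the other genes listed for retinoic acid synthesis and breakdown, Aldh1a7 and Cyp2s1 were tested and 0 called (adjusted p = 0.79 and 0.64, limma). Whether ALDH1A7 makes retinoic acid was not tested.

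With Xist as a covariate, Rdh10 stood at 0.53 on the log2 scale (adjusted p = 0.031) and Dhrs3 at -0.56 (adjusted p = 0.021), and both remained called by limma. Adh1 (0.80, adjusted p = 0.054, limma) and Akr1b10 (0.46, adjusted p = 0.093, limma) did not remain called. Of the 11 genes of interconversion 1 was then higher and 1 lower, and 0 in either direction for IncPBF lung 1 alone. For IncPBF lung 1 alone against the sham lungs the log2 fold changes were 0.54 (Rdh10), -0.56 (Dhrs3), 0.83 (Adh1) and 0.47 (Akr1b10). Lpl was called in both fits, Pnpla2 with the covariate only, and Lipe, Fabp5 and Dgat1 in neither. The log2 fold changes of these last 3 were -0.64, 0.31 and 0.32 with the covariate and -0.65, 0.33 and 0.32 for that lung alone.

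**Figure D4:**
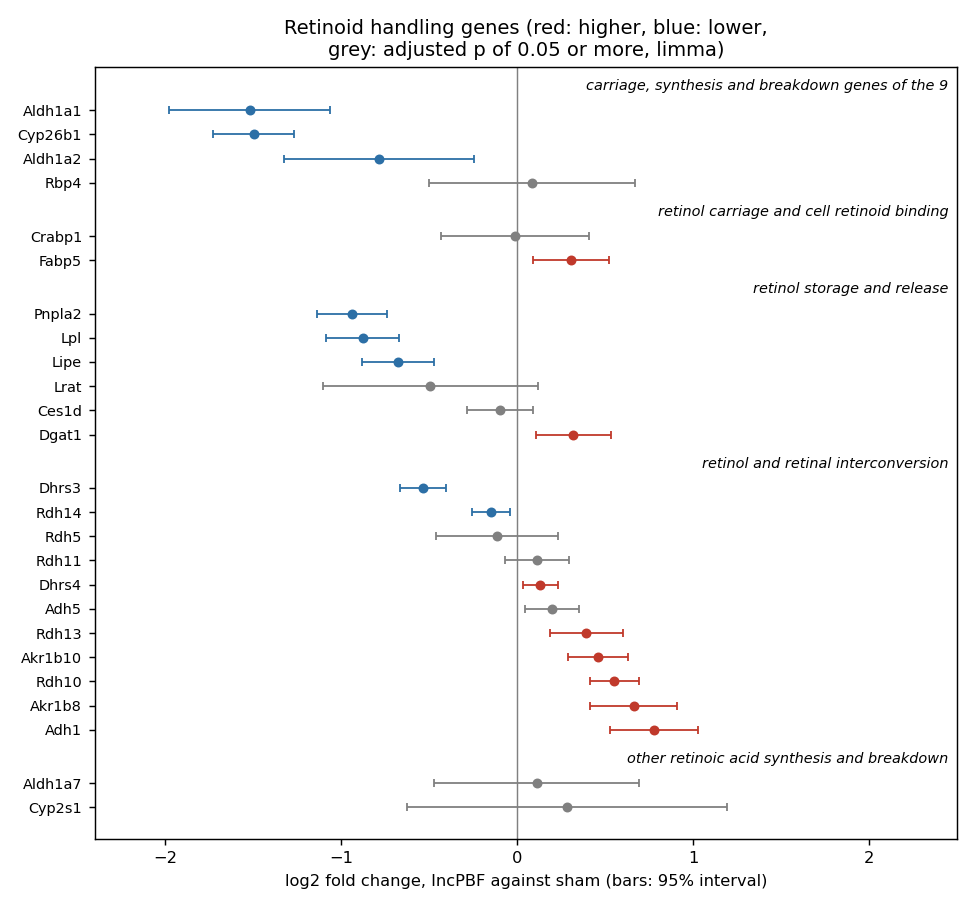
Log2 fold change (x axis, bars 95% intervals) of the tested retinoid handling genes by step, IncPBF against sham. Red points are higher, blue points lower and grey points not called at an adjusted p of 0.05 by limma. Aldh1a1 and Cyp26b1 lie at the far left, at -1.52 and -1.50, and Adh1 at the far right of the called genes, at 0.77.

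Of 17 listed known targets of retinoic acid, 14 were tested. Of these, 2 were higher, 3 were lower and 9 were not called, near the shares of all genes tested (16.1% higher, 16.2% lower). The median log2 fold change of the 14 was 0.09. Tgm2, a transglutaminase, fell from 98.3 ± 19.2 to 39.0 ± 4.73 FPKM (SD, n = 5 each; log2 fold change -1.31, adjusted p = 5e-05, limma). Hoxb5 and Hoxb4, HOX genes, rose by 0.41 and 0.37 on the log2 scale. Tgm2 remained called with Xist as a covariate (adjusted p = 0.013, limma), while Hoxb5 and Hoxb4 did not (0.23 and 0.12, limma). For IncPBF lung 1 alone none of these 3 was called, with adjusted p of 0.063 for Tgm2, 0.29 for Hoxb5 and 0.20 for Hoxb4 (limma). The log2 fold changes with the covariate and for that lung alone were -1.35 and -1.40 for Tgm2, 0.30 and 0.31 for Hoxb5, and 0.46 and 0.48 for Hoxb4.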

How the data were processed

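Total RNA of 10 lungs was sequenced from NEBNext libraries. The authors deposited FPKM per gene with gene lengths. The submitters' processing notes name Bowtie 0.12.2 and builds GRCm38, mm10 and hg38; the counting software and strand setting are not given in the sources used here. The IncPBF columns are abbreviated differently from the titles; they were matched because the remaining 5 columns are named sham. Of the genes shared with GENCODE M21 (GRCm38), 98.3% had the same coordinates. FPKM times length gave whole fragment numbers (within 0.05) for 100% of values. Intervals cover the spread between lungs, and fragment numbers counting error only.

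Genes averaging 0.5 FPKM or more over the 10 lungs were compared as log2(FPKM + 0.1), a scale that understates changes of low genes, by limma 3.58.1 (trend) in R 4.3.3 with Benjamini-Hochberg adjustment. Single values were compared by two-sided exact permutation. The test was tested on simulated data. Promoter sequences are from RefSeq (GRCm38.p6), in which all 9 genes matched, read with Python 3.11.15 and pandas 2.3.3. Figures used matplotlib 3.10.9.

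The genes eligible to be named were the 9 genes, at most 4 called genes per list with the smallest adjusted p, the first 2 of each marker list, genes needed to read one of the 9, the 3 nearest patterns, and Xist and Ddx3y; examples of them are given. The 9 genes and all lists were chosen with earlier results of these data known. Alternatives were another pseudocount (1 or 0.01), another filter (an average of 1 FPKM, or no minimum), scaling (equal total, median centring, quantile), the replicate block, no trend, limma-voom on fragments, log2 Xist as a covariate, no genes of chromosomes X and Y, IncPBF lung 1 against the sham lungs, and each lung left out. Some listed genes are not reported here.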

Additional observations from a re-analysis of the deposited data

Results flagged for a closer look

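Of 181 sets of 5 lungs (1 gene eligible to be named, in 1 group; listed genes that were not eligible were not looked at), 10 held a lung whose gap to the nearest other lung was above 0.71 of the range, and 0 of them belonged to the 9 retinoic acid genes. Chance flags about 1 in 20 such sets. IncPBF lung 1 was set apart by the sex-linked genes. It had the highest FPKM of its group for Ddx3y (18.59), Uty (2.9), Kdm5d (2.091) and Eif2s3y (12.37), and the lowest for Xist (0.01441), where the nearest other IncPBF lung was at 52.4.

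The other 5 were single lungs. Hdac3 was lowest in IncPBF lung 5 at 14.02 FPKM (next 15.06). Col14a1 was lowest in IncPBF lung 3 at 11.16 FPKM (next 14.02). Hoxb5, a known retinoic acid target, was highest in sham lung 3 at 8.295 FPKM (next 7.211). Ly6a was lowest in sham lung 4 at 86.7 FPKM (next 114.2). Chil3 was highest in sham lung 1 at 277.2 FPKM (next 107.7).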

How the results depend on the processing

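The number of the 9 genes called lower (4) went to 2 without a filter and to 1 with Xist as a covariate. It ran from 2 to 4 when each lung was left out. It was 3 with an equal total per lung, with no trend and with limma-voom, and 5 with quantile normalization. The 2 genes lost without a filter were Aldh1a2 (adjusted p = 0.066) and Rxra (0.075), where 31400 genes were tested; otherwise the cause was not tested. Over all genes, limma called 328 higher and 413 lower with Xist as a covariate and 42 and 112 for IncPBF lung 1 alone, whose fit takes that lung to vary like the sham lungs. Leaving out each lung gave 1950 to 2535 higher and 1919 to 2699 lower. An equal total per lung gave 3559 higher and 1782 lower, and limma-voom 3653 and 1863. Xist itself turned to -0.14 in IncPBF lung 1 against the sham lungs. Same-numbered lungs did not deviate together (r from -0.0675 to 0.0854), so the numbers do not pair the lungs; with the replicate block, 4 of the 9 genes were lower, and over all genes 2390 were higher and 2482 lower. Stra6 rests on 8 to 25 fragments per lung and Rarb on 33 to 68.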

Other observations

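Among the other RXR genes and the receptors that pair with RXRs (Rxra and the RARs not counted), 3 of 12 genes were higher, 4 were lower and 5 were not called (median log2 fold change -0.18). Rxrg, the least abundant RXR gene, rose from 0.435 ± 0.151 to 1.24 ± 0.17 FPKM (SD, n = 5 each; log2 fold change 1.37, adjusted p = 0.0011, limma), from 1.05% to 3.32% of the summed RXR FPKM, while Rxra gave 60.9% and 58.6%. The sham values rest on 10 to 24 fragments per lung, and Rxrg passed the filter through the IncPBF lungs. Its log2 fold change ran from 0.65 with a pseudocount of 1 to 1.62 with limma-voom. Nr4a1, an immediate early gene whose protein can pair with RXR, was at 32.8 ± 21.2 FPKM in the IncPBF lungs and 6.37 ± 2.05 in the sham lungs (SD, n = 5 each; log2 fold change 2.12, adjusted p = 0.0036, limma). Of 10 receptor cofactors, 4 were lower, 1 was higher and 5 were not called (median -0.25). The lower count was 2 without IncPBF lung 1, 2 or 4 or sham lung 1 or 5, and 6 at most when any lung was left out. Ncoa3, a coactivator, fell by 0.41, and Hdac3, a corepressor deacetylase, rose by 0.25 on the log2 scale. With Xist as a covariate, and for IncPBF lung 1 alone, limma called 0 genes of either list, Rxrg (adjusted p = 0.071 and 0.23) and Nr4a1 (0.29 and 0.12) included. The log2 fold changes in the former and the latter fit were 1.43 and 1.47 for Rxrg, 1.44 and 1.43 for Nr4a1, -0.44 and -0.46 for Ncoa3, and 0.28 and 0.29 for Hdac3.

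Of the epithelial markers, 8 of 8 of AT1 cells and 5 of 8 of AT2 cells were lower (medians -0.49 and -0.46). Across all genes tested, 16.2% were called lower. With Xist as a covariate 0 markers of either cell type were called, where 2.68% of all genes tested were called lower. The medians were -0.41 and -0.42 with Xist as a covariate and -0.44 each for IncPBF lung 1 alone, while Hopx, an AT1 marker, went from -0.50 to -0.33 and -0.34. Of 6 tested airway markers 0 were called, Scgb1a1 at a log2 fold change of 0.96 (adjusted p = 0.50, limma) and Scgb3a2 at 1.17 (adjusted p = 0.41, limma); without sham lung 5 they were at -0.19 and 0.05. The airway markers summed to 227 FPKM in sham lung 5 and to 5476 or more in every other sham lung. Sham lung 5 also had the highest Aldh1a2 and Rara and the lowest Rbp4; without it the adjusted p of Aldh1a2 was 0.048 (limma). Adventitial fibroblast markers were higher in 3 and lower in 1 of 9 tested. Macrophage markers were lower in 1 of 8, erythroid markers in 4 of 6 and adipocyte markers in 1 of 2. Without sham lung 3 the macrophage count was 2, and without IncPBF lung 1 the erythroid count was 2. The adventitial, macrophage and adipocyte counts were 0 with Xist as a covariate, and the erythroid count was 1. In that order of lists, median log2 fold changes with all lungs were 0.11, -0.22, -0.35 and -1.50. The covariate gave -0.07, -0.08, -0.61 and -2.44, and IncPBF lung 1 alone gave -0.09, -0.12, -0.62 and -2.47. Of 6 tested cardiac muscle markers 0 were called, and the 1 hepatocyte marker tested was not called. Of the sex-linked genes 1 was higher and 4 were lower.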
